A study of Caenorhabditis elegans with 6 samples.

Results

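The sdz and vet genes of Caenorhabditis elegans are 2 sets of genes named for transcripts of the early embryo. The deposited gene descriptions expand sdz as SKN-1-dependent zygotic transcript and vet as very early transcript. Members were taken as every gene with counts whose symbol is sdz or vet followed by a number. There are 38 of them among 22416 genes with counts, 35 named sdz and 3 named vet (vet-1, vet-2 and vet-6). Of the 38, 25 had enough reads to be tested and 13 did not.

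RNA was measured by polyA-selected sequencing in 6 pools of whole CL2006 worms. This strain carries the transgene unc-54p::Abeta, in which a muscle myosin promoter drives the human amyloid-β peptide, and both groups carry it. Worms were raised at 20 °C on bacteria with the empty RNAi vector (EV) until the last larval stage. After that, 3 pools stayed on EV (EV control) and 3 were fed nol-56 double-stranded RNA (nol-56 RNAi), and all were collected on day 6 of adulthood. Each pool mixes all tissues, and adults were moved daily away from their progeny. The number of embryos that the worms carried is not given in the labels.

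The C. elegans embryo starts on RNA and protein that the mother loaded into the oocyte, and its own genome is switched on within the first cell divisions. SKN-1, a maternally supplied transcription factor, specifies the blastomere that founds mesoderm and endoderm, acting through the zygotic GATA-type factors MED-1, MED-2, END-1 and END-3. In older animals SKN-1 also acts in the intestine, where it controls detoxification genes. An sdz name records a dependence on SKN-1 in embryos and says nothing about whether a gene is also expressed in the adult body.

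Total counts per library were 21138955 to 34841215, and 18988 to 19454 genes were detected. The targeted gene itself, nol-56, encodes a nucleolar protein. It had 5878, 9029 and 8288 reads in the EV control and 518, 442 and 339 reads under its RNAi, as the labels would have it (log2 fold change −3.85, SE 0.06, adjusted p = 1.18e-21). This and every adjusted p here come from edgeR's quasi-likelihood test with Benjamini-Hochberg adjustment over all 14677 genes tested, two-sided, with nol-56 RNAi over EV control. CPM denotes reads per 1000000 reads of the scaled library total. The labels do not state whether the pools were separate cultures, and the p-values cover no more than the spread among these 6 samples, which could be technical.

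Most sdz and vet genes were lower on nol-56 RNAi, and a few were higher. All 3 vet genes fell, by 7.13-fold to 12.3-fold. Of the 22 sdz genes tested, 17 fell and 4 rose, and sdz-8 did not pass the threshold. Together, 20 of 25 members fell (80%), where 40.8% of all genes tested were called lower, and 4 of 25 rose (16%), where 47.2% of all genes were called higher. All 20 fell at least 2-fold, as 12.4% of all genes did, and 15 fell at least 4-fold (60%), as 2.76% of all genes did. A rise of at least 2-fold was called in 3 members and in 24.8% of all genes. The median log2 fold change of the 25 members was −2.83, and that of all genes tested was 0.16. In 24 of the 25 the groups did not overlap, as in 88.0% of all genes. These are whole animals, in which fewer cells of a type and less RNA per cell cannot be told apart.

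**Figure D1:**
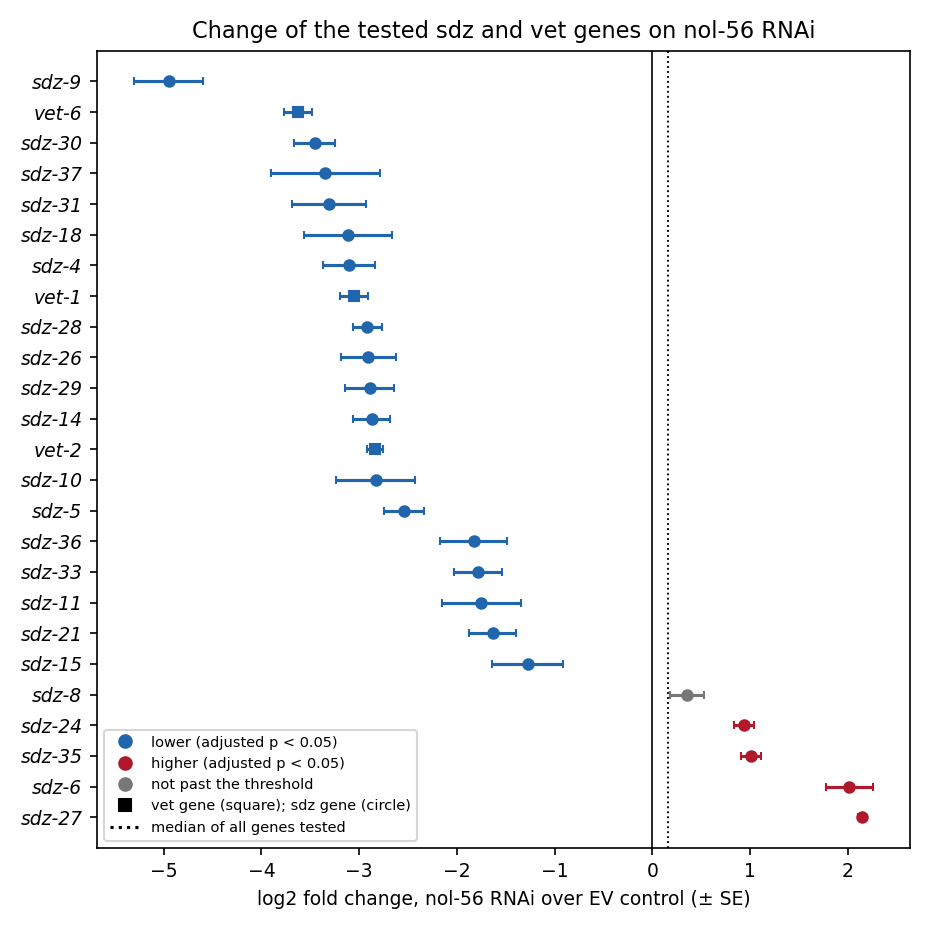
Log2 fold change of each of the 25 tested sdz (circles) and vet (squares) genes, nol-56 RNAi over EV control, with its standard error from the edgeR fit on 3 libraries per group. The dotted line is the median of all genes tested, 0.16. Blue genes passed the threshold as lower, red genes as higher, and grey sdz-8 did not pass.

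The members tested are those that passed the filter on low counts, about 0.417 CPM in any 3 libraries. Of the 25, 12 passed it in the 3 EV control libraries but not in all 3 nol-56 RNAi libraries, so their counts above describe the members that passed and not all 38. sdz-6 entered through the nol-56 RNAi libraries alone. Among the 12 members with enough reads in all 6 libraries, 8 fell, 3 rose and sdz-8 did not pass the threshold. The shares of all genes with enough reads in all 6 libraries were not computed, so these counts have no background. Members were mostly weakly expressed. In 8120 tested genes whose mean level lay in the range of the members other than sdz-27, 21.7% were lower, 61.8% were higher and 4.4% were lower at least 4-fold, with a median log2 fold change of 0.73.

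Among the members that fell, vet-2 and vet-1 had the highest level per length in EV control, and sdz-28 and vet-6 came next, at 6.93 and 5.40 reads per kilobase of exon and 1000000 reads (RPKM). vet-2 (WBGene00016453, chromosome I, 10846772 to 10850103, plus strand of WBcel235) stood at 34.3, 34.7 and 37.7 CPM in the EV control libraries and at 4.74, 5.65 and 4.53 CPM on nol-56 RNAi. Every control library held more than 6 times the CPM of any nol-56 RNAi library. It fell by 2.83 on the log2 scale (SE 0.08, adjusted p = 4.07e-18). vet-1 (WBGene00020261, chromosome I, 6200798 to 6202076, minus strand) stood at 13.9, 14.8 and 18.8 CPM in EV control libraries and at 1.89, 1.59 and 2.31 CPM on nol-56 RNAi. The 2 groups were far apart, and EV control library 3 was the highest of the 6. The change was −3.05 on the log2 scale, SE 0.14 (adjusted p = 6.83e-15). vet-6 (WBGene00006902, chromosome I, 13269984 to 13272781, plus strand) went from 13.4, 13.05 and 16.3 CPM to 1.01, 1.22 and 1.248 CPM. This fall, −3.62 with a standard error of 0.14, was the largest of the vet genes (adjusted p = 4.07e-16). The 3 vet genes summed to 65.6 ± 6.27 CPM (SD, n = 3) in EV control and 8.06 ± 0.409 CPM on nol-56 RNAi. All 3 lie on chromosome I with sdz-14 and sdz-30, which fell too.

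Among the sdz genes that fell, sdz-28 had the highest RPKM in EV control. In CPM it stood at 7.76, 7.93 and 9.47 CPM in EV control libraries and 1.13, 1.18 and 1.02 CPM on nol-56 RNAi (log2 fold change −2.92, SE 0.15, adjusted p = 3.95e-14). sdz-29, an annotated pseudogene 1788 bp away from sdz-28 on the other strand of chromosome II, had 2.37, 2.78 and 3.01 CPM against 0.241, 0.488 and 0.370 CPM. Its change, −2.89, was close to that of sdz-28. sdz-30 stood at 4.31, 5.30 and 6.11 CPM in EV control and at 0.523, 0.407 and 0.508 CPM on nol-56 RNAi, a change of −3.46 (SE 0.21). It lies 34269 bp from vet-6 on the same strand of chromosome I. sdz-14 went from 4.96, 4.34 and 5.06 CPM to 0.804, 0.488 and 0.647 CPM (−2.87). In each of these 4 genes the lowest control library was more than 4 times as high as the highest nol-56 RNAi library.

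The largest fall of any member was that of sdz-9, which had 77, 96 and 106 reads in EV control libraries 1 to 3 and 0, 5 and 2 reads in nol-56 RNAi libraries 1 to 3. In CPM this was 3.19 ± 0.281 against 0.0986 ± 0.102, with a fitted log2 fold change of −4.95 (SE 0.36, adjusted p = 1.15e-11). The fold is loosely set by so few reads on nol-56 RNAi, and it was −4.35 without nol-56 RNAi library 1 and −6.06 without library 2. Its neighbour sdz-10, 102 bp away on the same strand of chromosome II, had 29, 31 and 48 reads against 4, 1 and 7 reads. The change of sdz-10 was −2.83 (SE 0.41), and −3.55 without nol-56 RNAi library 3. In neither gene did the groups overlap.

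The remaining members of at least 1 CPM that fell were sdz-4, sdz-5, sdz-21, sdz-26, sdz-31 and sdz-33. sdz-4 had 2.76, 2.90 and 4.16 CPM in EV control and 0.442, 0.244 and 0.462 CPM on nol-56 RNAi (−3.10). sdz-26 had 2.67, 2.39 and 3.27 CPM against 0.201, 0.285 and 0.647 CPM (−2.91). sdz-31 had 1.29, 1.35 and 1.248 CPM against 0.121, 0.0407 and 0.231 CPM (−3.31). In all 3, every nol-56 RNAi library was below 1 CPM and every control library above it. Without nol-56 RNAi library 3 the change was −3.49 for sdz-26 and −3.93 for sdz-31. sdz-5, which the deposited descriptions list with an F-box-associated FBA_2 domain, had 4.05, 3.35 and 3.55 CPM against 0.523, 0.610 and 0.739 CPM (−2.54). sdz-33, the other member with that domain, had 2.07, 1.92 and 2.43 CPM against 0.643, 0.813 and 0.370 CPM (−1.78). F-box proteins are substrate receptors of ubiquitin ligases in many eukaryotes. sdz-21 had 1.72, 2.42 and 2.69 CPM against 0.764, 0.935 and 0.508 CPM, and its groups came closest to each other among these 6 genes (−1.63, SE 0.24, adjusted p = 1.40e-06).

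**Figure D2:**
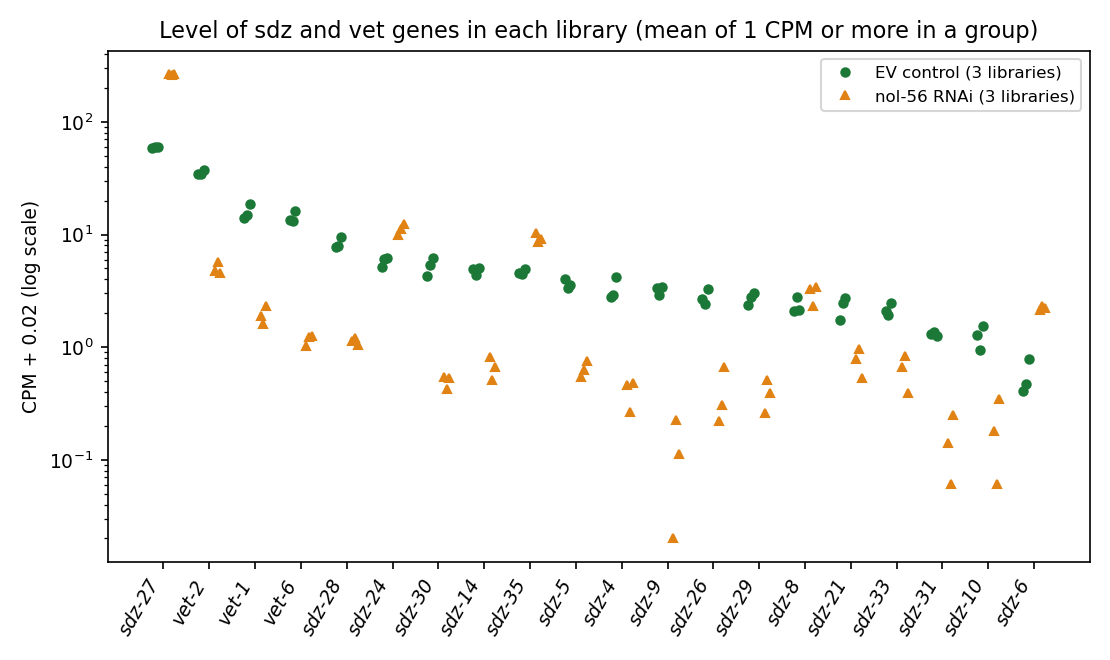
CPM plus 0.02 in each of the 6 libraries, on a log axis, for the 20 sdz and vet genes with a group mean of at least 1 CPM, ordered by the EV control mean. Green circles are the 3 EV control libraries and orange triangles the 3 nol-56 RNAi libraries, and only in sdz-8 do the groups overlap.

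The other 5 members that fell had means under 1 CPM in both groups. They were sdz-37 (−3.35, SE 0.56), sdz-18 (−3.11, SE 0.45), sdz-36 (−1.83), sdz-11 (−1.75) and sdz-15. sdz-15 changed least of the members that fell (−1.28, SE 0.36, adjusted p = 0.00241). sdz-37 had 15, 16 and 23 reads in EV control libraries and 0, 2 and 2 on nol-56 RNAi. sdz-15 had 26, 16 and 33 reads against 10, 7 and 8. Groups did not overlap in any of the 5, but their changes rest on few reads.

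The member with the most reads went the other way. sdz-27 (WBGene00011124, chromosome IV, 11187029 to 11188264, plus strand) had 1359, 2020 and 1885 reads in EV control libraries and 6580, 6429 and 5778 reads in nol-56 RNAi libraries. In CPM it went from 58.6, 60.4 and 60.3 to 264.5, 261.4 and 267.0, with a tight spread in both groups. The rise was 4.42-fold (log2 fold change 2.14, SE 0.04, adjusted p = 9.55e-21), in the 0.988% of all genes that rose at least 4-fold. sdz-27 held 29.95% to 33.3% of all reads of the 38 members in EV control libraries and 86.0% to 86.6% on nol-56 RNAi. Levels per length differed likewise. In RPKM, sdz-27 stood at 84.9 in EV control, and the next members, vet-2 and vet-1, at 14.3 ± 0.767 and 13.3 ± 2.18, which do not differ beyond their spread. On nol-56 RNAi sdz-27 stood at 375 RPKM, and the next were sdz-24 at 12.1 and sdz-35 at 10.5.

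The other members that rose were weaker in reads. sdz-6 (chromosome V) had 9, 15 and 24 reads in EV control and 53, 57 and 48 on nol-56 RNAi, a rise of 4.05-fold (2.02, SE 0.24, adjusted p = 5.88e-08). sdz-35, which has a BTB domain per the deposited description, stood at 4.53, 4.43 and 4.93 CPM in EV control and at 10.3, 8.58 and 9.19 CPM on nol-56 RNAi. It rose 2.02-fold (1.01, SE 0.10, adjusted p = 6.80e-09). The BTB fold is a protein interaction domain found in many ubiquitin ligase adaptors. sdz-18, the other BTB member, fell. sdz-24, with an OB domain per the deposited description, a fold that often binds nucleic acids, had 5.17, 6.07 and 6.18 CPM against 9.97, 11.3 and 12.4 CPM (0.93, SE 0.10, adjusted p = 1.63e-08). The groups did not overlap in any of the 4 genes that rose, and each was called higher with 2 other scalings of the libraries as well.

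sdz-8 was the only tested member whose groups overlapped. It had 2.07, 2.78 and 2.11 CPM in EV control and 3.30, 2.32 and 3.42 CPM on nol-56 RNAi (0.35, SE 0.18, adjusted p = 0.0641). Library 2 of each group broke the pattern, being the highest of the control and the lowest of nol-56 RNAi. Without EV control library 2 the adjusted p was 0.0225, and without nol-56 RNAi library 2 it was 0.0141. Over all alternatives tried it was 0.00410 to 0.340.

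The sum over all 38 members therefore hid the fall of most of them. It was 187 ± 12.4 CPM (SD, n = 3) in EV control and 306 ± 4.29 CPM on nol-56 RNAi. Without sdz-27 the sum was 127 ± 11.9 CPM in EV control and 41.8 ± 1.57 CPM on nol-56 RNAi. The 20 members that fell summed to 104.26, 104.05 and 123.50 CPM in EV control libraries 1 to 3 and to 14.2, 15.1 and 14.97 CPM in nol-56 RNAi libraries 1 to 3. Members were called lower with that fall in view, so their sum is a description.

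**Figure D3:**
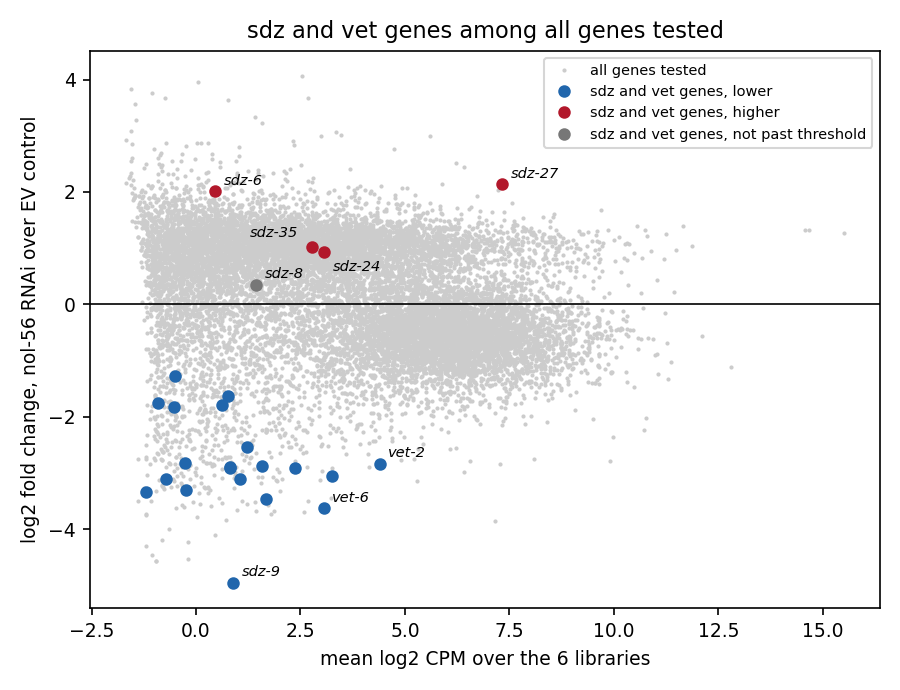
Mean log2 CPM over the 6 libraries (x axis) and log2 fold change (y axis) of all genes tested, in grey, with the 25 sdz and vet genes in colour. Members that fell spread over the whole range of low levels up to vet-2, while sdz-27 stands alone at a mean log2 CPM of 7.33 and a change of 2.14.

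Of the 13 members not tested, none reached more than 25 reads in any library. They were sdz-1, sdz-3, sdz-7, sdz-12, sdz-13, sdz-16, sdz-19, sdz-20, sdz-23, sdz-25, sdz-32, sdz-34 and sdz-38. sdz-7 had 10, 25 and 18 reads in EV control and 2, 3 and 2 on nol-56 RNAi, and sdz-16 had 6, 17 and 23 against 1, 1 and 2. When no filter was applied, 36 members with at least 1 read were fitted, 25 passed as lower and 5 as higher, where 30.1% and 35.1% of all genes did. The additional members lower were sdz-16 (−3.10), sdz-12 (−2.84), sdz-7 (−2.55), sdz-19 (−1.91) and sdz-38 (−1.70). sdz-12 and sdz-38 encode zinc finger proteins per the deposited descriptions. The additional member higher was sdz-8. A stricter filter, CPM above 5 in at least 3 libraries, left 7 members, of which 4 were lower and 3 higher, where 46% and 45.4% of all genes were. sdz-25 and the pseudogene sdz-34 had no read in any library, which allows up to 0.0330 CPM over the EV control group and 0.0436 CPM over the nol-56 RNAi group by a limit of 3 reads, covering counting error only. The table gives the symbol sdz-25 to WBGene00019791, while Ensembl 115 gives it also to WBGene00019788, which had no read either.

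Members were not spread evenly over the genome. Chromosome II held 17 of 38 members (44.7%), against 17.1% of all genes with counts. Of the 12 members tested there 10 fell, near the 20 of 25 over all chromosomes. The share of all tested genes of chromosome II that fell was not computed. Of the 35 protein-coding members, 8 (22.9%) have an F-box gene of the fbxa, fbxb or fbxc families as a direct protein-coding neighbour, against 2.70% of all protein-coding genes. On chromosome II alone this was 6 of 15 members, against 5.22% of protein-coding genes. These families differed in direction. Of 113 fbxb genes with counts 84 were tested, and 81 of these were called lower (median −2.72), where 40.8% of all genes were. Of 156 tested fbxa genes 107 were higher, where 47.2% of all genes were, and 35 were lower (median 0.92). Among the 8120 tested genes in the members' range of level without sdz-27, 21.7% were lower and 61.8% higher. Passing the filter through EV control alone favours a fall, and how many fbxb genes did so was not computed. The pair sdz-10 and sdz-9 lies between fbxb-105 (−3.18) and fbxb-111 (−1.46). sdz-11 lies beside fbxb-91 (−2.94), and untested sdz-32 lies beside fbxb-104 (−4.10). sdz-4, which fell, lies beside fbxc-7, which rose from 0.420 to 1.53 CPM (1.85).

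Neighbours of members did not always move with them. On one side of sdz-27 lies nuaf-3, which fell from 22.6 to 16.01 CPM (−0.49). On the other lies fbxb-79, which was near absent at 0.0564 CPM in EV control and 0.0536 CPM on nol-56 RNAi. sdz-35 rose, while ZC239.21, 294 bp from it, fell from 1.10 to 0.125 CPM (−3.05). Near sdz-30, which fell, T04D3.1 fell as well (−2.44). The sizes of members were near those of other genes, with a median exon length of 999 bp for protein-coding members and 1160.5 bp for all protein-coding genes with counts.

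A few values are uncertain because genes overlap, and no source used here gives the strand setting of the counting, although the library kit marks strand. sdz-33 lies inside faah-4 on the other strand without sharing exon sequence. faah-4 had 793 to 2623 reads per library and fell (−0.93). sdz-1, which was not tested, shares 42 bp of exon with B0303.7 on the other strand, which had 657 to 981 reads per library. sdz-24 shares 19 bp with sri-45, which had 1 to 8 reads per library, and sdz-14 shares 72 bp with linc-18, which had at most 1 read. Reads that members of the F-box, FBA_2 and BTB families might share with similar genes could not be examined, since sequences were not used here.

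Other early zygotic genes moved in the same direction in the larger part. Of 29 tested regulators and markers of the early embryo that carry neither name, 21 fell and 8 rose, with a median of −1.15. Of all genes tested, 40.8% were called lower and 47.2% higher. Some that fell passed the filter on low counts through EV control alone, which favoured a fall. Examples are tbx-38, with 6 reads in each nol-56 RNAi library, and ceh-51, with 3, 4 and 4 reads. How many of the list did so was not computed, so its counts are a description. Among those that fell were the T-box factor genes tbx-38 (−3.04), tbx-11 (−2.62), tbx-8 (−2.56) and tbx-9 (−1.54), and pes-10 (−2.49), whose transcript is a marker of the first zygotic transcription. The zinc finger gene die-1 (−1.40) and ref-1 (−2.13), a target of Notch signalling in the embryo, fell too. tbx-9, die-1, ham-1 (−1.42), elt-1 (−1.15), ref-1 and tbx-11 had the smallest p of the list, and the others were named after their values were seen. The 8 that rose were elt-7, pha-4, hlh-1, unc-120, cwn-1, php-3, vab-7 and nob-1. Their changes were 0.48 to 1.18, and nob-1 (0.48) missed the threshold in DESeq2 (adjusted p = 0.113) and with RLE scaling (0.0501). It missed it as well without nol-56 RNAi library 1 (0.0534) or 2 (0.0860). Of these, elt-7 is also a factor of the intestine, pha-4 of the pharynx and gut, and hlh-1 and unc-120 of body wall muscle. Among those that fell, lin-26 (−0.52) is also an epidermis marker. The part of any tissue in these changes was not tested.

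The zygotic GATA factor genes downstream of SKN-1 were too low to test. end-1 had 4, 6 and 17 reads in EV control and 4, 4 and 3 on nol-56 RNAi, and end-3 had 4, 8 and 13 against 5, 5 and 7. med-1 and med-2 had at most 3 and 9 reads in any library, and as near-identical copies they cannot be told apart with certainty. A difference in these 4 genes was not detectable at this depth. The skn-1 transcript itself had 392 ± 18.7 CPM in EV control and 318 ± 3.79 CPM on nol-56 RNAi. It fell by 0.30 on the log2 scale (SE 0.04, adjusted p = 9.42e-07). With upper-quartile factors the change was −0.05 and did not pass (adjusted p = 0.212).

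Maternal genes of embryonic fate were mostly lower as well. Of 35 tested, 32 fell (29 with upper-quartile factors), where 40.8% of all genes did, with a median of −0.63, and none fell by 4-fold or more. Those with the smallest p were pop-1, the TCF factor of the Wnt pathway (−1.47), mex-1 (−1.24), sys-1, a β-catenin (−1.21), par-5 (−0.98), mom-2, a Wnt ligand (−0.997), and pos-1 (−0.96). pie-1, which represses transcription in the germline precursors, stood at −0.66 and pal-1, a maternal homeodomain factor, at −0.39, and both fell. par-1 (0.06), apx-1 (0.04) and mom-1 (−0.18) did not pass the threshold. These 3 calls turned on the settings. par-1 and apx-1 passed as higher with upper-quartile factors (0.31 and 0.29) and with the filter at 5 CPM (0.21 and 0.19), and par-1 also without EV control library 1 (0.09). mom-1 passed as lower with RLE factors (−0.32), in DESeq2 (−0.32) and without nol-56 RNAi library 2 (−0.27).

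Markers of other cell types moved in the same libraries, and their part in the members' changes was not tested. For the counts below, 40.8% of all genes tested were called lower and 47.2% higher. Germline and oocyte markers were lower in 36 of 38 cases and higher in 2 (median −1.19), and their summed level was 26132 to 28356 CPM in EV control and 16866 to 17112 CPM on nol-56 RNAi. car-1 (−2.78), htp-3 (−2.05) and cgh-1 (−2.02) had the smallest p. The log2 fold change of 20 of the 25 tested members was below this list's median. Of those 25, 12 had passed the filter on low counts through the EV control libraries alone. How they entered favoured a fall, so this comparison is a description. Sperm markers were split, with 5 lower and 5 higher of 12 (median −0.32), among them spe-39 (−0.49), spe-15 (0.53) and spe-44 (−0.50). They summed to 138 to 146 CPM in EV control and 121 to 126 CPM on nol-56 RNAi. Most of this sum was spe-39, with a mean of 95.4 CPM in EV control and 68.1 CPM on nol-56 RNAi. The largest changes were in weak genes, nspd-2 (−2.40), nspd-1 (−2.01) and gsp-3 (−1.96) lower and spe-11 (1.02) higher. Of 16 epidermis markers, 10 were lower and 4 higher (median −0.87), with noah-2 (−1.66) and noah-1 (−1.38) lower and rol-6 (1.11) higher, and summed to 733 to 862 CPM and 706 to 728 CPM. The lower gene lin-26 (−0.52) is also in the list of other early zygotic genes. Adult epidermis was not measured apart from embryos inside the worms.

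Markers of intestine, body wall muscle and neurons were higher in the same libraries as sdz-27, sdz-6, sdz-35 and sdz-24. Intestine markers rose in 20 of 21 cases (median 0.98), where 47.2% of all genes did, led by cpr-3 (1.41), cpr-4 (1.15) and ifc-2 (1.01). They summed to 58935 to 61118 CPM in EV control and 135290 to 153481 CPM on nol-56 RNAi. Most of this sum was vit-6 (mean 27271 to 65710 CPM), vit-5 (14791 to 37208 CPM) and vit-2 (13814 to 34633 CPM), so it says little about the other markers. All 20 markers of body wall muscle rose (median 0.93), as unc-27 (1.12), mlc-3 (1.11) and unc-22 (1.12) did, from 5814 to 6167 CPM in EV control to 11152 to 11230 CPM on nol-56 RNAi. Of 25 neuron markers, 22 rose and 3 did not pass the threshold (median 0.96), with egl-3 (1.44), egl-21 (1.46) and sbt-1 (1.33) first, and summed to 703 to 734 CPM against 1390 to 1426 CPM. sdz-35 (1.01) and sdz-24 (0.93) lay near these medians, and sdz-27 (2.14) and sdz-6 (2.02) above each of them. Which tissue expresses these 4 genes is not measured in whole worms, and the part of these tissues in their rise was not tested.

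**Figure D4:**
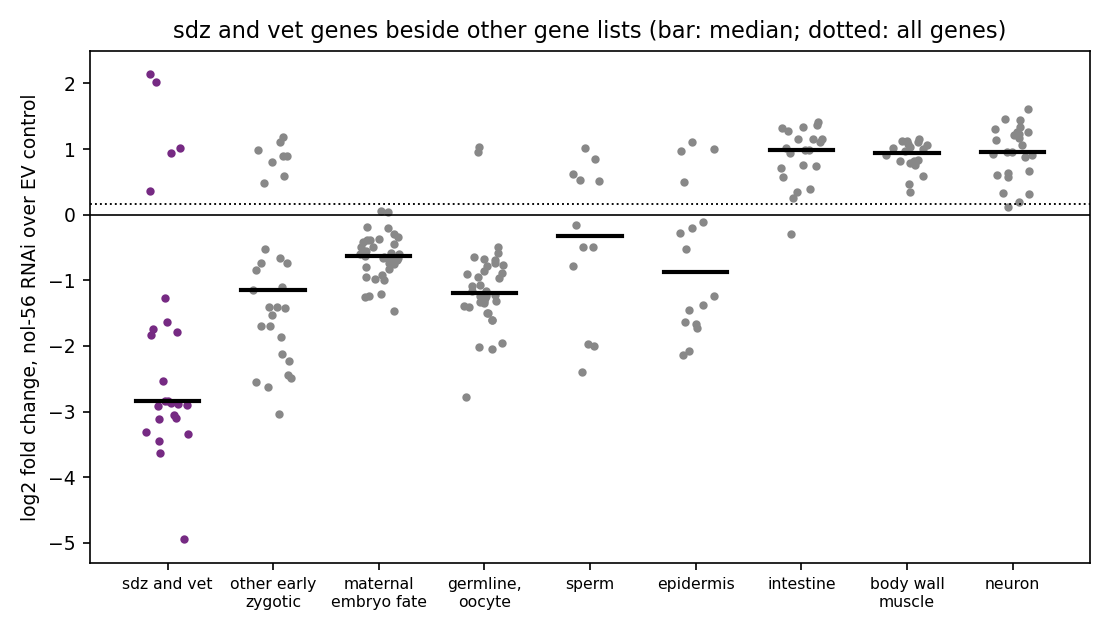
Log2 fold change of each tested gene in the sdz and vet set (purple) and in 8 other gene lists (grey), with black bars at the medians and a dotted line at the median of all genes, 0.16. Most sdz and vet genes lie below the germline median of −1.19, but 12 of the 25 passed the filter through EV control alone, which favoured a fall. The 4 that rose and sdz-8 lie among or above the intestine, muscle and neuron lists.

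The control libraries themselves differed in these genes. EV control library 3 held the highest CPM of the 3 controls in 20 of 25 tested members and in 17 of the 20 that fell. It was the highest control for 32.5% of all genes tested and for 21.2% of all genes called lower, of which 50.2% were highest in library 1. For the 20 that fell, its CPM was 1.24 times the mean of the other controls at the median, and for all genes tested 0.993 times. Library 3 was also the highest for 19 of 29 other early zygotic genes. Germline and maternal genes were arranged the other way. Library 1 was the highest control for 30 of 38 germline markers and 32 of 35 maternal genes, and library 3 for none and 1 of them. Intestine (13 of 21), body wall muscle (15 of 20) and epidermis markers (12 of 16) were also mostly highest in library 3. Neuron markers were highest most often in library 2 (12 of 25). The calls did not turn on that library, as each of the 25 members kept its call without it.

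**Figure D5:**
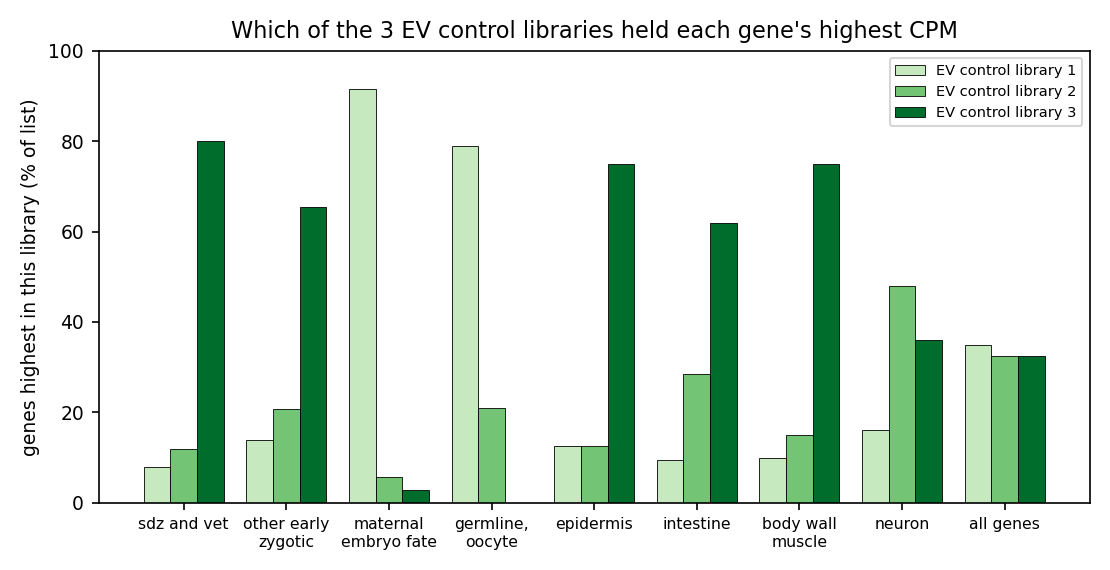
Share of the tested genes of each list, in percent, whose highest CPM among the 3 EV control libraries was in library 1 (pale), 2 (middle) or 3 (dark). For sdz and vet genes library 3 was highest in 80% of cases, and for maternal embryo fate genes library 1 in 91.4%.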

How the data were processed

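The authors deposited a table with whole-number read counts per gene, not normalized, and a normalized signal per gene and library. Dividing the deposited count by the signal gave 1 constant per library, and the signal had no other use here. Per the submitters' processing notes, cutadapt 2.10, TopHat2 2.1.1, HTSeq 2.01, DESeq2 1.36.0 and WBcel235 were used, with no role given. No row lacked a gene identifier, and 22406 genes with counts matched Ensembl 115 of WBcel235, the source of positions, types and exon lengths.

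The sdz and vet genes and the gene lists were chosen with earlier results of these data known. Of the names written in the lists, elt-5 and opt-2 had no match.

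Genes were filtered with filterByExpr, scaled by TMM, and tested in edgeR 4.0.16 (R 4.3.3) with group as the only term and a threshold of 0.05 on the adjusted p. The filter, about 0.417 CPM in 3 libraries, kept at least 99.9% of counts. Standard errors were derived from the F statistics. The code was tested on simulated counts. Counts of replicate pairs differed beyond sampling noise (chi-square over its degrees of freedom 1.99 to 5.95). Every member with a group mean of at least 1 CPM is given by library and the rest by counts and examples. From each list the genes with the smallest p are named (3, or 6 for embryo lists), with skn-1, pie-1 and pal-1. Other genes were named after their values were seen. Alternatives were RLE and upper-quartile factors, a stricter filter of CPM above 5 in 3 libraries or none, a block on replicate number, leaving out single libraries, DESeq2 1.42.0, limma-voom (limma 3.58.1) and a fold of at least 2. Counts of PCR-amplified reads are not counts of molecules, so intervals and limits cover counting error only.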

Additional observations from a re-analysis of the deposited data

How the results depend on the processing

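Over 307 refits of single tested members, 303 kept the direction and the side of the threshold, and the other 4 were all of sdz-8. sdz-8 passed as higher with upper-quartile factors (0.60), with no filter (0.36), without EV control library 2 (0.51) and without nol-56 RNAi library 2 (0.52). With genes above 5 CPM in at least 3 libraries, only 7 members were fitted, of which 4 were lower and 3 higher, because fewer genes were tested. With that filter 9 of 14 other early zygotic genes tested were lower (21 of 29 with the main filter), as were 2 of 5 sperm markers (5 of 12). Of all 9931 genes tested with it, 4566 were lower and 4508 higher. With no filter 8 of 19 sperm markers were lower, as were 6367 of all 21154 genes. The numbers tested differ between filters, so these counts alone show no loss or gain of effect. Leaving out 1 library at a time gave 20 to 23 members lower and 4 to 5 higher, of 25 to 28 members tested. Of all genes, 5933 to 6056 were lower and 6742 to 6937 higher, of 14932 to 15042 tested. A fold of at least 2 left 20 lower and 3 higher.

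The summed level of all members in EV control was 172 CPM with upper-quartile factors and 127 CPM without the member with the most counts, sdz-27. On nol-56 RNAi it was 292 CPM with RLE factors, 333 CPM with upper-quartile factors and 41.8 CPM without sdz-27. It was higher on nol-56 RNAi in each case with sdz-27 and lower without it. RLE factors moved the median change over all genes (log2) by −0.14 and upper-quartile factors by 0.25, and the share of calls that were higher was 53.6% with TMM, 49.6% with RLE and 62.4% with upper-quartile factors.

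With the replicate number as a block, 20 members were lower and 4 higher, and nol-56 stood at −3.85. Same-numbered libraries of the groups did not deviate together (correlations of −0.04, −0.01 and 0.0004 across genes), so the numbers are not taken to pair the samples. Depth limits the 13 untested members, the GATA factor genes end-1, end-3, med-1 and med-2, and the fold of sdz-9.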
